A study of Mus musculus with 8 samples.

Results

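Abdominal white fat of wild type XY (male) mice was set against that of wild type XX (female) mice, for genes on the autosomes. The study measured 8 RNA samples, and this comparison holds the 4 from the wild type strain. They are 2 pools of males and 2 pools of females, each mixed in equal amounts from 5 adult mice of the strain B10.D2 (Rsl/Rsl), which carries functional Regulator of sex-limitation genes in both sexes. The other 4 samples, 2 pools of males and 2 of females of the Rsl-null (rsl) strain, entered the model for the spread between pools and appear in the comparison of the strains. All mice ate standard chow, and total RNA was copied into biotin-labelled cRNA from 400 ng per pool and read on Affymetrix Mouse Genome arrays. No dissected pad within the abdomen, age or oestrous stage is named in the sources used here. Whether a mouse could be in both pools of its group is not stated. One label field gives liver as the source of the RNA, while the tissue field and the series design give white adipose tissue. Genes of the X and Y chromosomes were set aside, apart from a check of the labels. Xist was 5.05 and 5.27 in the male pools against 11.29 and 11.30 in the female pools, and Ddx3y was 9.26 and 9.43 in the male pools against 2.76 and 2.93 in the female pools (log2 signal).

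White adipocytes store triglyceride, made partly from fatty acids that the cell builds from citrate and acetate, and they release adipokines such as leptin and adiponectin. Fat depots differ in developmental origin, which shows in their Hox and other positional genes, and visceral depots are covered by a mesothelium. In male mice the gonadal fat pad lies along the epididymis and testis, and in female mice it lies along the uterus and ovary, while the inguinal pad of females holds the mammary gland. Sex steroids and glucocorticoids act on fat through receptors in the adipocytes and their progenitors, and enzymes within the tissue make or inactivate these hormones.

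Values are log2 signals per gene, so a difference of 1 is a 2-fold change, and differences are male minus female with the standard error (SE) of the limma model, n = 2 pools each. A gene passed the test when its limma p, adjusted by Benjamini-Hochberg over 45037 probe sets, was under 0.05. A p here reflects how far pools of a group differ, since the 5 mice of a pool are not resolved. An exact permutation test of 2 pools against 2 cannot go below 0.333. Where both pools of the dimmer sex were at or below background, the fold is given as a bound. For Cuzd1, Calml3, Dsp, Cldn7, Ldhc, Slc27a2, Pcp4, Myh1 and Ucp1 1 of these pools was, so their differences are approximate. Across 17843 autosomal genes, 469 (2.63%) were higher and 539 (3.02%) were lower in males, 5.65% in all, and the median difference was -0.003. Of the higher genes 224 differed by at least 1 log2 unit and 37 by at least 3, and of the lower genes 190 and 14 did. The 2 male pools were less alike than the 2 female pools. Between the male pools 528 probe sets lay at least 1 log2 unit apart and between the female pools 5, with correlations across probe sets of 0.988 and 0.998. The model uses 1 spread per gene for all groups, and the counts fell to 24 to 33 higher and 57 to 87 lower genes without 1 of the female pools. They were 157 and 257 without either rsl female pool, 997 and 1040 without either rsl male pool, 429 and 235 without male pool 1, and 486 and 360 without male pool 2. Among the controls for RNA quality, the Gapdh 3' probe set exceeded the 5' one by 0.68 and 0.71 in the male pools, against 0.72 and 0.59 in the female pools. For the actin control the gap was 1.06 and 0.95 in the male pools, against 0.88 and 0.89 in the female pools.

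In all pools the tissue carried the marks of fat. Adipoq, which codes for adiponectin, was 13.04 and 13.13 in the male pools and 13.18 and 13.17 in the female pools. Fabp4, the fatty acid carrier of adipocytes, was 13.26 and 13.28 in the male pools and 13.27 and 13.23 in the female pools. Lep, which codes for leptin, was 11.02 and 11.17 in the male pools and 10.84 and 10.73 in the female pools, a difference of 0.31 ± 0.27 that did not pass (adjusted p = 0.642). The 20 measured adipocyte identity genes, among them Pparg and Cebpa, the transcription factors that drive adipocyte differentiation, gave 0 calls with limma in either direction, 3 at an unadjusted p under 0.05, and a median difference of -0.02. Their mean signal was 10.33 and 10.55 in the male pools and 10.54 and 10.48 in the female pools, so the groups overlapped. Plin1 was not measured here.

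**Figure D1:**
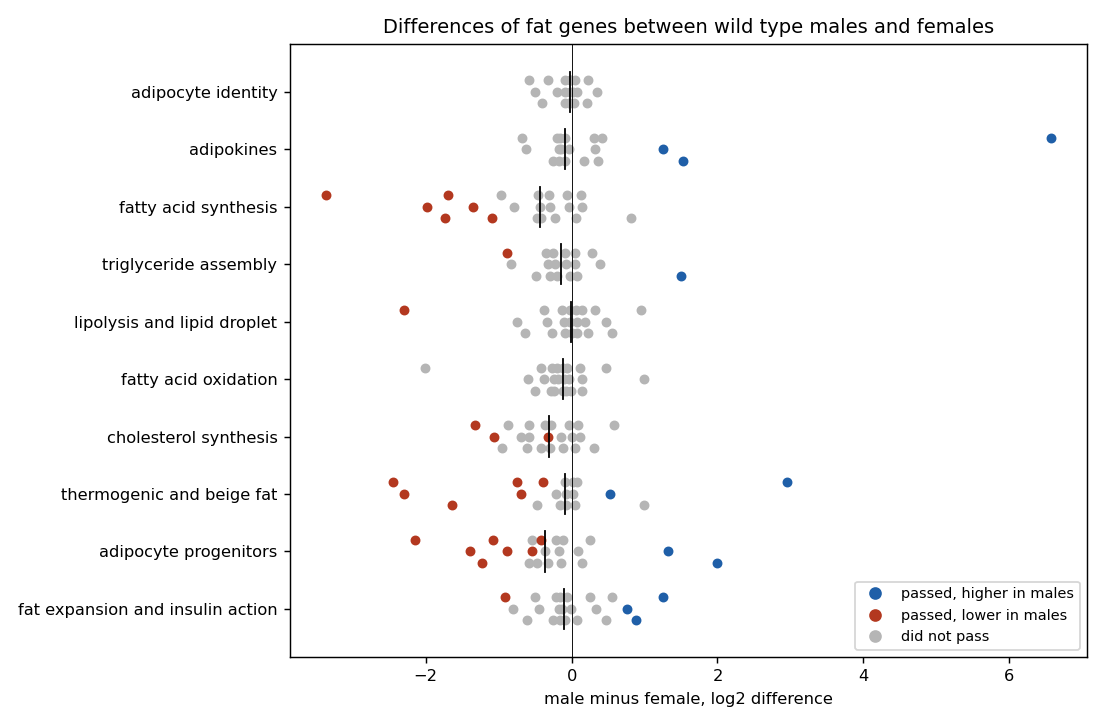
Male minus female log2 difference (x axis) of the measured members of 10 fat gene lists (y axis), 1 point per gene, with blue points for genes that passed the test higher in males, red points for genes that passed lower in males, grey points for the rest, and a black bar at each list's median. The medians lie near 0 for adipocyte identity (-0.02) and below 0 for fatty acid synthesis (-0.43).

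Several genes for making fatty acids were lower in males. Of 21 measured members of the fatty acid synthesis list, 6 were lower, 0 were higher and the median difference was -0.43, against 3.02% of all autosomal genes that were lower. Elovl6 (chromosome 3, 129532386-129638495 on GRCm38.p6), which lengthens palmitate to stearate, was 8.29 and 7.21 in the male pools against 10.96 and 11.27 in the female pools, 10.3-fold lower in males (-3.36 ± 0.40, adjusted p = 0.00884). Acly, which splits citrate into acetyl-CoA in the cytosol, was 10.93 and 10.43 in the male pools against 12.35 and 12.47 in the female pools (-1.73 ± 0.16, adjusted p = 0.0035). Acss2, which makes acetyl-CoA from acetate, was 9.95 and 9.20 in the male pools against 11.45 and 11.66 in the female pools (-1.98 ± 0.22, adjusted p = 0.00692). Each of these 3 genes was lower in both male pools than in either female pool, as were 29.3% of all autosomal genes. Of the probe sets of each, 2 or 3 passed in that direction. Acaca, the acetyl-CoA carboxylase that commits carbon to fatty acids, was 9.95 and 9.33 in the male pools against 11.35 and 11.31 in the female pools (-1.69 ± 0.21). The mitochondrial citrate carrier Slc25a1 (-1.09 ± 0.13) and malic enzyme Me1 (-1.36 ± 0.27), which supplies NADPH, were the remaining genes of the list that passed. Fasn, the fatty acid synthase itself, was 11.97 and 11.24 in the male pools and 12.48 and 12.65 in the female pools and did not pass (-0.96, adjusted p = 0.104). The desaturase Scd1 was near the top of the scale in every pool, at 13.26 and 13.28 in the male pools and 13.31 and 13.29 in the female pools. Srebf1, the transcription factor that activates many of these genes, was 10.27 and 10.18 in the male pools and 10.27 and 10.32 in the female pools. The count of 6 became 1 without female pool 1, 0 without female pool 2 and 11 without either rsl male pool.

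Promoters of 3 genes that passed are shown, picked because their windows hold the motif CCAAT, known from sites of the factor NF-Y. It is in capitals on whichever strand it was found (ATTGG on the other). The windows run from 250 bases before to 50 after the transcription start, 5' to 3' on the gene's strand, from RefSeq on GRCm38.p6. The match in Acly and the later match in Slc25a1 lie within the 50 bases after the start. They are Acly at chr11:100527951-100528250 (minus strand), Acss2 at chr2:155517793-155518092 (plus strand) and Slc25a1 at chr16:17928170-17928469 (minus strand).
Acly: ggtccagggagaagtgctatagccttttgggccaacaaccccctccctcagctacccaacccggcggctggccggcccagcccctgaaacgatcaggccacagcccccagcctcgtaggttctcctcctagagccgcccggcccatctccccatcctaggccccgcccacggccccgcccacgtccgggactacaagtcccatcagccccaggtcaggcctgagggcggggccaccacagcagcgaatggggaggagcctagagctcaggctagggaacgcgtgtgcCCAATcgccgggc
Acss2: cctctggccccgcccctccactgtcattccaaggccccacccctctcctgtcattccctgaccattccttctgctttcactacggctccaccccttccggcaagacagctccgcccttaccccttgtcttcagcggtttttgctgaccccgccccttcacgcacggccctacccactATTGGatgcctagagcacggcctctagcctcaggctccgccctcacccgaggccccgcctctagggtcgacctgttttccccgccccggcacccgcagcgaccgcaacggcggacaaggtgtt
Slc25a1: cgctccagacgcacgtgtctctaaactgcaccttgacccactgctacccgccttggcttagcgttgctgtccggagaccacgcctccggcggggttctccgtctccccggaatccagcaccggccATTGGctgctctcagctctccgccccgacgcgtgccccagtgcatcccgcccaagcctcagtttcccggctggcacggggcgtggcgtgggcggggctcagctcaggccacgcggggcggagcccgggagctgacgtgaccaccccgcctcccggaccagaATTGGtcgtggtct
CCAAT was found on either strand in the window of 13 of the 17 list members with a window, 4 of the 6 that passed and 9 of the 11 that did not, against 37.4% of all 32851 windows and 41.1% of 27025 genes. The match is a description of these letters and says nothing about binding.

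Lists of later lipid handling each held fewer genes that passed than fatty acid synthesis, beside 5.65% of all autosomal genes. In triglyceride assembly, with 18 measured members, Mogat1, a monoacylglycerol acyltransferase, was higher in males at 8.90 and 9.21 against 7.49 and 7.60 in females (1.505 ± 0.30, adjusted p = 0.044). Gpam, the mitochondrial acyltransferase that starts glycerolipid synthesis, was lower at 10.93 and 11.13 in the male pools against 11.85 and 11.96 in the female pools (-0.88 ± 0.16, adjusted p = 0.0366). Among 22 lipolysis and lipid droplet genes only Cidea passed, and the lipases Pnpla2 (-0.38, adjusted p = 0.558) and Lipe (0.01, adjusted p = 0.991) did not. None of 23 fatty acid oxidation genes passed with limma, with 6 at an unadjusted p under 0.05. The largest difference of that list was in Pdk4, the kinase that shuts off pyruvate use, at 6.42 and 6.81 in the male pools and 8.74 and 8.51 in the female pools (-2.01 ± 0.42, adjusted p = 0.0514). In cholesterol synthesis, with 22 measured genes, 3 were lower in males and 0 higher. Lss, which closes the sterol ring, was 7.001 and 6.81 in the male pools against 8.10 and 8.37 in the female pools (-1.33 ± 0.13). Dhcr7, which acts late in the pathway, was lower by -1.06 ± 0.14.

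Among 19 thermogenic and beige fat genes, 6 were lower and 2 higher in males, against 3.02% and 2.63% of all autosomal genes. The median difference was -0.09. Cidea, a lipid droplet protein abundant in brown and beige fat, was 4.78 and 5.07 in the male pools against 7.05 and 7.40 in the female pools, 4.93-fold lower (-2.30 ± 0.24, adjusted p = 0.00587). Cox8b, a cytochrome oxidase subunit of brown fat and striated muscle, was 7.16 and 6.59 in the male pools against 9.30 and 9.36 in the female pools (-2.45 ± 0.23, adjusted p = 0.00403). Ucp1, the uncoupling protein that makes heat in brown fat, was dim everywhere, at 3.56 and 3.77 in the male pools against 4.33 and 4.37 in the female pools (-0.69 ± 0.10, adjusted p = 0.0176), and male pool 1 was at or below the background of its array. The potassium channel Kcnk3 (-1.65 ± 0.18) and Cox7a1 (-0.75 ± 0.14) were lower too, and Otop1 (-0.40 ± 0.07) passed at levels below background in all 4 pools. The fatty acid transporter Slc27a2 was higher in males (2.95 ± 0.41, adjusted p = 0.0145), as was Tbx1 (0.53 ± 0.10), which lay below background in every pool. Striated muscle genes, Cox8b among them, moved in the same direction. In all, 22 of 37 measured members of the skeletal muscle list were lower in males, with summed signals (arbitrary linear units) of 1473 and 1505 in the male pools against 6184 to 7039 in the female pools. Their part in these differences was not tested. The count of 6 became 0 without either female pool, 3 without male pool 1, and 4 without male pool 2 or without either rsl female pool.

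Adipokine genes differed in 3 of 19 cases, all higher in males, against 2.63% of all autosomal genes that were higher. Lcn2 (chromosome 2, 32384637-32387739), which codes for lipocalin 2, an iron-siderophore carrier made by adipocytes, neutrophils and epithelia, was 9.82 and 10.37 in the male pools against 3.64 and 3.40 in the female pools. Both female pools were at or below background, and the gene was at least 75.8-fold higher in males (limma adjusted p = 7.96e-05). Epididymal and epithelial genes were also brighter in males, with epididymal sums of 29774 and 1442 (arbitrary linear units) in the same male pools against 316 and 324 in the female pools, and their part in Lcn2 was not tested. Agt, which codes for angiotensinogen, was 9.68 and 10.26 in the male pools against 8.48 and 8.41 in the female pools (1.52 ± 0.24). Sfrp5, a secreted Wnt antagonist, was 6.11 and 6.62 in the male pools against 5.01 and 5.21 in the female pools (1.25 ± 0.16). Sfrp5 and Mest, which rise in mouse fat that is expanding, both belong to the list of fat expansion and insulin action, where 3 of 22 genes were higher and 1 lower. Mest was 8.57 and 8.90 in the male pools against 7.90 and 7.83 in the female pools (0.88 ± 0.18, adjusted p = 0.0463). Igf1r, the receptor of insulin-like growth factor 1, was higher by 0.75 ± 0.12, with 1 of its 5 probe sets past the threshold, and the imprinted gene Peg3 was lower (-0.91 ± 0.16) with 3 of 5. The insulin receptor gene Insr did not pass (-0.01, adjusted p = 0.97).

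Enzymes that act on sex steroids held some of the widest gaps in the comparison. Sult1e1 (chromosome 5, 87575968-87591611), the sulfotransferase that inactivates oestrogens, was 9.34 and 9.87 in the male pools against 4.11 and 4.05 in the female pools, 46-fold higher in males (5.52 ± 0.17, adjusted p = 4.51e-05). Akr1c14 (chromosome 13, 4048991-4090560), the mouse 3-alpha-hydroxysteroid dehydrogenase, which acts on dihydrotestosterone and progesterone metabolites, was 4.06 and 4.02 in the male pools against 7.84 and 7.85 in the female pools, 14-fold lower (-3.81 ± 0.14, adjusted p = 7.96e-05). The 2 genes differed in opposite directions. Backgrounds were 3.81 and 3.73 in the male pools and 3.78 and 3.92 in the female pools. Sult1e1 in the female pools and Akr1c14 in the male pools lay within 1 log2 unit of background, so these folds are approximate. Testis genes were also brighter in males, with summed signals of 2261 and 2329 in the male pools against 798 and 795 in the female pools, and their part in Sult1e1 was not tested. Pgr (chromosome 9, 8898900-8968611), the progesterone receptor and a gene known to be induced by oestrogen, was 3.90 and 3.83 in the male pools against 6.11 and 6.79 in the female pools, 5.99-fold lower (-2.58 ± 0.20, adjusted p = 0.00208), with 1 of its 3 probe sets past the threshold. Its male pools also lay within 1 log2 unit of background. The oestrogen receptor gene Esr1 was 9.36 and 9.81 in the male pools and 10.22 and 10.28 in the female pools and did not pass (-0.66 ± 0.16, adjusted p = 0.0774). In all, 1 of 25 measured sex steroid genes was higher and 2 were lower in males, against 2.63% and 3.02% of all autosomal genes. The aromatase gene Cyp19a1 lay at 3.87 and 3.68 in the male pools and 3.71 and 3.66 in the female pools, near background.

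Genes of glucocorticoid action were higher in males in 5 of 17 measured cases and lower in 0, against 2.63% of all autosomal genes that were higher. The median difference of the 17 was 0.22, and differences ran from -1.08 to 6.575. Hsd11b1, the enzyme that regenerates active corticosterone within fat, was 10.20 and 10.32 in the male pools against 8.62 in both female pools, 3.12-fold higher (1.64 ± 0.23, adjusted p = 0.015). Fkbp5, a chaperone partner of the glucocorticoid receptor that the hormone induces, was 9.41 and 9.62 in the male pools against 7.49 and 7.02 in the female pools, 4.8-fold higher (2.26 ± 0.20, adjusted p = 0.00299), with 2 of 3 probe sets past the threshold. The metallothionein genes Mt1 and Mt2, induced by glucocorticoids and by metals, were higher by 1.38 ± 0.09 and 2.16 ± 0.13, and Mt2 was 10.82 and 11.20 in the male pools against 8.91 and 8.80 in the female pools. Lcn2, given above beside the epididymal and epithelial genes, was the other. The receptor gene Nr3c1 itself was 9.75 and 9.97 in the male pools and 9.80 and 9.94 in the female pools (adjusted p = 0.996), and Per1, also induced by the hormone, was 7.83 and 8.37 in the male pools and 8.52 and 8.33 in the female pools (adjusted p = 0.501). This count stayed at 4 or 5 under each alternative that was run.

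**Figure D2:**
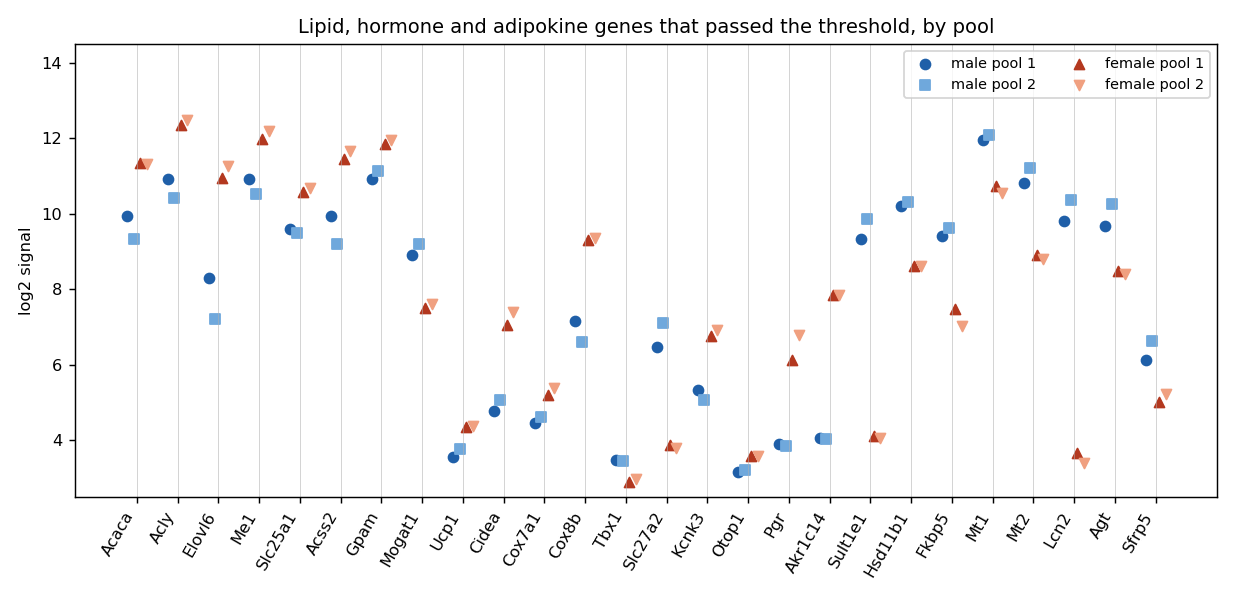
Log2 signal (y axis) of the lipid, thermogenic, hormone and adipokine genes that passed the test (x axis), with 1 symbol for each pool: dark circles and light squares for the male pools, triangles pointing up and down for the female pools. Sult1e1 and Lcn2 sit between 9.34 and 10.37 in the male pools and between 3.40 and 4.11 in the female pools, and Elovl6 and Akr1c14 lie lower in both male pools.

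The Hox genes that passed divided by their number in the cluster. Of 33 measured Hox genes 5 were lower and 3 higher in males, against 3.02% and 2.63% of all autosomal genes, with a median of 0.07. The 5 lower genes carry numbers 9 to 11 and the 3 higher ones numbers 4 to 8, a grouping made after the values were seen. Among genes numbered 9 to 13, 5 of 13 were lower and 0 higher with a median of -0.34. Among genes numbered 1 to 8, 3 of 20 were higher and 0 lower with a median of 0.27. Hox genes of high number are expressed towards the tail end of the body axis and those of low number towards the head end.

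Hoxa10 (chromosome 6, 52231197-52240854) was 4.43 and 4.41 in the male pools against 7.49 and 7.75 in the female pools, 9.19-fold lower (-3.20 ± 0.14, adjusted p = 0.000159), with 1 of its 2 probe sets past the threshold. Its neighbour Hoxa9 (52223097-52227370) was 5.62 and 5.73 in the male pools against 8.43 and 8.72 in the female pools, 7.46-fold lower (-2.90 ± 0.25, adjusted p = 0.00284). Hoxc10 (chromosome 15, 102966796-102971898) was 4.50 and 4.08 in the male pools against 7.40 and 7.46 in the female pools, 8.83-fold lower (-3.14 ± 0.19, adjusted p = 0.0011). In the male pools, with backgrounds of 3.81 and 3.73, Hoxa10 and Hoxc10 lay within 1 log2 unit of background and Hoxa9 lay more than 1 unit above it. Hoxd10 was below background in both male pools and at least 1.67-fold lower in males, and Hoxa11 was at least 1.47-fold lower. Further along the same Hoxc cluster the sign was the other one. Hoxc8 (102990539-102994275) was 10.72 and 10.81 in the male pools against 9.71 and 9.68 in the female pools (1.07 ± 0.18, adjusted p = 0.0251). Hoxc4 (103018097-103036856) was 7.59 and 7.78 in the male pools against 5.97 and 6.15 in the female pools, 3.08-fold higher (1.62 ± 0.15, adjusted p = 0.00369). Hoxc9, which lies between Hoxc10 and Hoxc8, was 6.33 and 6.28 in the male pools and 6.70 and 6.73 in the female pools and did not pass (-0.41 ± 0.09, adjusted p = 0.0655). In the Hoxb cluster Hoxb5 was higher at 5.52 and 5.20 in the male pools against 4.63 and 4.68 in the female pools (0.71 ± 0.12, adjusted p = 0.0305). Hoxb3 (1.14 ± 0.25, adjusted p = 0.057), Hoxb6 (1.501 ± 0.37, adjusted p = 0.0863) and Hoxb9 (0.98 ± 0.21, adjusted p = 0.0583) did not pass. The count of 5 lower genes became 3 without female pool 2. The count of 3 higher genes became 0 without female pool 1, 1 without female pool 2, male pool 1 or either rsl female pool, and 8 without either rsl male pool.

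**Figure D3:**
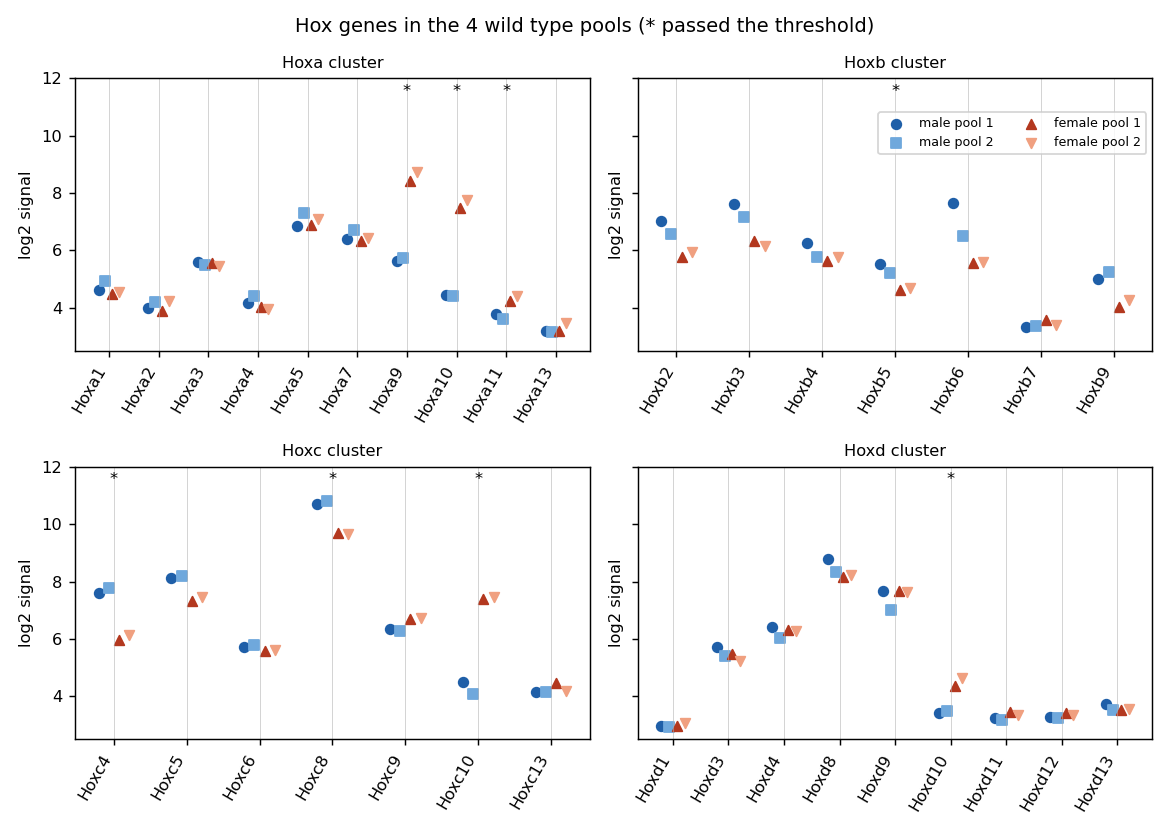
Log2 signal (y axis) of the measured Hox genes of the 4 clusters (x axes, ordered by number), with 1 symbol for each wild type pool and an asterisk above genes that passed the test. Hoxa9, Hoxa10 and Hoxc10 lie between 4.08 and 5.73 in the male pools and between 7.40 and 8.72 in the female pools, while Hoxc4 and Hoxc8 lie higher in both male pools.

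Other factors that mark depots differed at 3 of 29 measured genes, all lower in males, against 3.02% of all autosomal genes that were lower. Wt1 (chromosome 2, 105126529-105173614), a transcription factor of the mesothelium and of visceral fat progenitors, was 5.42 and 5.82 in the male pools against 7.45 and 7.35 in the female pools, 3.44-fold lower (-1.78 ± 0.17, adjusted p = 0.0038). Bnc1, another mesothelial transcription factor, was 6.30 and 6.25 in the male pools against 7.85 and 8.14 in the female pools (-1.72 ± 0.17, adjusted p = 0.00473). Shox2, known from subcutaneous fat, was dim at 3.98 and 3.96 in the male pools against 4.48 and 4.62 in the female pools (-0.58 ± 0.07, adjusted p = 0.0115). Tbx15, another subcutaneous marker, was below background in all 4 pools, and Tcf21, a visceral one, was 7.05 and 7.23 in the male pools and 7.33 and 7.47 in the female pools (-0.26 ± 0.14, adjusted p = 0.415).

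Of 21 measured genes of the mesothelium, the sheet of cells that covers visceral fat, 9 were lower in males and 3 higher. The shares over all autosomal genes were 3.02% and 2.63%, and the median of the list was -0.90. Msln, which codes for mesothelin, was 6.50 and 6.38 in the male pools against 7.76 and 7.55 in the female pools, 2.32-fold lower (-1.21 ± 0.10, adjusted p = 0.00295). Upk3b, a uroplakin of mesothelial cells, was 9.36 and 9.51 in the male pools against 10.65 and 10.60 in the female pools (-1.19 ± 0.18, adjusted p = 0.0187). The surface mucin Muc16 was 6.28 and 5.87 in the male pools against 7.74 and 7.72 in the female pools (-1.66 ± 0.16). Upk1b (-1.17 ± 0.11, all 4 of its probe sets), Igfbp6 (-1.21 ± 0.12), Cldn15 (-0.90 ± 0.18) and Nkain4 (-0.56 ± 0.11) were lower too, and Wt1 and Bnc1 complete the 9. In bulk tissue fewer cells of a type and less RNA per cell cannot be told apart, here and for every cell type below. The 3 members that were higher are also made elsewhere: the keratin genes Krt8 (2.01 ± 0.32) and Krt18 (2.52 ± 0.46) by other simple epithelia, and the retinal dehydrogenase gene Aldh1a1 (1.08 ± 0.11) by adipocytes and progenitors. Summed signals of the 26 measured epithelial genes, which include Krt8 and Krt18, were 8152 and 3581 in the male pools against 1702 and 1699 in the female pools. The part of the other epithelial genes in the keratin values was not tested. The count of 9 became 3 without female pool 1, 1 without female pool 2, 6 without male pool 1 or either rsl female pool, and 15 without either rsl male pool.

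Of 21 adipocyte progenitor genes 7 were lower and 2 higher, against 3.02% and 2.63% of all autosomal genes, with a median of -0.36. Pi16 and Cd55, which mark the interstitial progenitors of mouse fat, were lower in males, by -1.08 ± 0.16 and -1.39 ± 0.17 on the log2 scale. Sfrp4, a secreted Wnt antagonist, was 6.03 and 5.97 in the male pools against 8.23 and 8.07 in the female pools, 4.43-fold lower (-2.15 ± 0.14, adjusted p = 0.00137). Lum (-1.23 ± 0.17), Wnt2 (-0.88 ± 0.11), Thy1 (-0.54 ± 0.08) and Dlk1 (-0.42 ± 0.08) were the others. Pdgfra, the receptor shared by most fat progenitors, was 9.04 and 9.30 in the male pools and 9.56 and 9.44 in the female pools and did not pass (-0.33, adjusted p = 0.382). Cd24a (1.99 ± 0.21) and Fmo2 (1.32 ± 0.15) were higher in males, and Cd24a is also known from epithelia. The count of 7 became 1 without either female pool and 4 without either rsl female pool.

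Of 24 collagen and matrix genes 5 were lower and 1 higher, against 3.02% and 2.63% of all autosomal genes, with a median of -0.50. Postn, which codes for periostin, was 9.53 and 9.73 in the male pools against 11.30 and 11.31 in the female pools, 3.19-fold lower (-1.67 ± 0.10, adjusted p = 0.0011). Thbs1, which codes for thrombospondin 1, was 8.04 and 8.19 in the male pools against 10.51 and 10.42 in the female pools (-2.35 ± 0.38, all 3 probe sets). Col14a1 (-1.45 ± 0.10), Col6a1 (-0.76 ± 0.15) and Col6a2 (-0.55 ± 0.08) were lower too. The fibrillar collagen genes Col1a1 (-0.46, adjusted p = 0.152) and Col3a1 (-0.34, adjusted p = 0.23) did not pass, and Col8a1 was higher (0.47 ± 0.08). The count of 5 became 2 without any 1 of the 4 wild type pools, 3 without either rsl female pool and 11 without either rsl male pool.

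Of 18 smooth muscle and pericyte genes 7 were lower in males and 0 higher, against 3.02% and 2.63% of all autosomal genes. The median was -0.45. Actg2, the actin of visceral smooth muscle, was 6.07 and 6.56 in the male pools against 8.81 and 9.34 in the female pools, 6.76-fold lower (-2.76 ± 0.34, adjusted p = 0.00981). Cnn1, which codes for calponin, was 6.08 and 6.31 in the male pools against 8.26 and 8.78 in the female pools (-2.33 ± 0.21). Myh11, the smooth muscle myosin, was 8.84 and 9.24 in the male pools against 9.97 and 10.00 in the female pools (-0.94 ± 0.16). Des, which skeletal muscle also makes, differed by -1.80, and Smtn, Tagln and Lmod1 by -1.32, -1.06 and -0.57. Acta2, the actin that vessel walls share, did not pass (-0.47, adjusted p = 0.0887). The count of 7 became 2 without either female pool, 3 without either rsl female pool and 4 without male pool 1.

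Skeletal muscle genes were lower in males: of 37 measured members 22 were lower and 0 higher, against 3.02% and 2.63% of all autosomal genes. The median was -1.24. Of the 37, 20 had their nearest male and female pools at least 1 log2 unit apart and lower in males, against 0.751% of all autosomal genes (a count added after the data were seen). Acta1 (chromosome 8, 123891758-123894775), the actin of skeletal muscle, was 5.66 and 6.18 in the male pools against 10.50 and 10.16 in the female pools, 21.2-fold lower (-4.41 ± 0.67, adjusted p = 0.0193). Tnnc2, the calcium-binding troponin of fast fibres, was 4.26 and 3.98 in the male pools against 9.08 and 8.82 in the female pools, 28.4-fold lower (-4.83 ± 0.59, adjusted p = 0.00988). Ckm, the muscle creatine kinase, was 4.15 and 3.88 in the male pools against 7.11 and 6.998 in the female pools (-3.04 ± 0.50, adjusted p = 0.024). All 3 genes were lower in both male pools than in either female pool, as were 29.3% of all autosomal genes. Tnnc2 and Ckm lay within 1 log2 unit of background in the male pools, and Acta1 lay more than 1 unit above it. The fast myosin heavy chain genes Myh4, Myh1 and Myh2 were lower too. Myh4 lay below background in both male pools and was at least 18.4-fold lower, Myh1 differed by -4.12 ± 0.52 and Myh2 by -3.06 ± 0.44. Tnnt3 (at least 9.42-fold), Mylpf (10.8-fold), Ttn (at least 5.71-fold), Tnni2 (7.7-fold) and Pvalb (4.04-fold) followed. Myl1, a fast myosin light chain, was 8.90 and 9.06 in the male pools and 10.35 and 10.26 in the female pools and did not pass (-1.32, adjusted p = 0.0798). The count of 22 became 1 without either female pool and 8 without either male pool.

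Promoters of 4 muscle genes that passed are shown, picked because their windows hold the E-box CAGCTG (in capitals). It is a site known for the myogenic factors MyoD and myogenin and reads the same on both strands. The windows are those of RefSeq on GRCm38.p6, as above: Acta1 at chr8:123894726-123895025 (minus strand), Myh4 at chr11:67237562-67237861 (plus strand), Mylpf at chr7:127211358-127211657 (plus strand) and Ckm at chr7:19410844-19411143 (plus strand).
Acta1: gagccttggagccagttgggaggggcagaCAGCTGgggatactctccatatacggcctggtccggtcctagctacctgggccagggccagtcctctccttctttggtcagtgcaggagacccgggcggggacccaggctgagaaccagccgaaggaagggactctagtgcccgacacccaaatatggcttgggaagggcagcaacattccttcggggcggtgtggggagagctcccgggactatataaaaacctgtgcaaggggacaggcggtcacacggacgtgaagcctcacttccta
Myh4: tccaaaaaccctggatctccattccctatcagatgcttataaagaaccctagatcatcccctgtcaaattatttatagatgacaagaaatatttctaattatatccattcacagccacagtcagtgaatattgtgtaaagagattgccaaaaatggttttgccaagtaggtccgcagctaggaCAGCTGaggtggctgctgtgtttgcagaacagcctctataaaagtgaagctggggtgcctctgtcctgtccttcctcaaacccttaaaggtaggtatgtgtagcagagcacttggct
Mylpf: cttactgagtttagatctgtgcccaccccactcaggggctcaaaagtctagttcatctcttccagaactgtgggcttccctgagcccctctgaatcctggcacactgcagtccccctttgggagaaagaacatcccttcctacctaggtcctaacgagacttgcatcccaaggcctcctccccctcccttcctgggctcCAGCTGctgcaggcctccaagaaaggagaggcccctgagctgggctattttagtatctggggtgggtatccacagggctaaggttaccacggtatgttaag
Ckm: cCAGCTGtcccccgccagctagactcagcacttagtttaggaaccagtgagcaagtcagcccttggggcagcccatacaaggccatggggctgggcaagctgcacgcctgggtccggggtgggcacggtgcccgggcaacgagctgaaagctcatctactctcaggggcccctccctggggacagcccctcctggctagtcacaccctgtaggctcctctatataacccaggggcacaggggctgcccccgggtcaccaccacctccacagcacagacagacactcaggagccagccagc
CAGCTG was found in the window of 16 of the 27 list members with a window, 10 of the 18 that passed and 6 of the 9 that did not, against 16.3% of 32851 windows and 18.3% of 27025 genes. The match is a description and not a site.

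In males the arrays also held transcripts of the reproductive tract. Epididymal genes were unlike between the male pools: the 21 measured members averaged 7.47 and 4.995 in the male pools against 3.80 and 3.83 in the female pools. Their summed signals were 29774 and 1442 in the male pools against 316 and 324 in the female pools. Crisp1, a secreted coat protein of sperm from the epididymis, was 12.60 and 7.14 in the male pools and 3.21 and 3.03 in the female pools, at least 64.8-fold brighter, and did not pass (6.75 ± 1.47, adjusted p = 0.0579). Lcn5, a retinoid-binding lipocalin of the epididymis, was 12.59 and 6.04 in the male pools and 3.95 and 3.86 in the female pools (5.41 ± 1.76, adjusted p = 0.17). The 1 member that passed was Cuzd1, at 12.17 and 9.16 in the male pools against 3.71 and 4.09 in the female pools, 109-fold higher (6.76 ± 0.83, adjusted p = 0.00988), with female pool 1 below background. Not all epididymal genes were in pool 1. Gpx5, an epididymal glutathione peroxidase, was 5.93 and 7.87 in the male pools and 5.49 and 5.47 in the female pools. Lcn8 was 3.83 and 5.45 in the male pools and 3.86 and 3.99 in the female pools. The count of 1 became 9 without male pool 1, 12 without male pool 2, 2 without either rsl male pool and 0 without either female pool.

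Testis and sperm genes were higher in males and even between the male pools. Of 26 measured members 13 were higher and 0 lower, against 2.63% and 3.02% of all autosomal genes, with a median of 1.73. Of the 26, 13 had their nearest male and female pools at least 1 log2 unit apart and higher in males, against 1.35% of all autosomal genes. The list averaged 5.73 and 5.74 in the male pools against 4.09 and 4.08 in the female pools. Prm2 (chromosome 16, 10791377-10792105), a protamine that packs sperm DNA, was 8.55 and 8.51 in the male pools against 4.40 and 4.44 in the female pools, 17.3-fold higher (4.11 ± 0.64, adjusted p = 0.0202). Tnp1, a transition protein of spermatids, was 7.30 in both male pools against 3.33 and 3.32 in the female pools, at least 10.9-fold higher. Ldhc, the lactate dehydrogenase of spermatocytes, was 6.64 and 7.45 in the male pools against 3.98 and 3.83 in the female pools (3.14 ± 0.36, adjusted p = 0.00816). Akap3, Odf1, Crisp2 and Smcp, all parts of the sperm, were higher by at least 7.46-fold, at least 6.58-fold, at least 5.2-fold and 8.21-fold. Seminal vesicle, vas deferens and prostate genes did not pass in any of 13 cases with limma, with 1 at an unadjusted p under 0.05, and Svs4, a major seminal vesicle secretion, was below background in all 4 pools. The count of 13 became 0 without either female pool, 8 without male pool 1 and 6 without either rsl female pool.

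Some epithelial genes, chosen for the mammary gland that lies in female inguinal fat, were higher in males. Of 26 measured members 6 were higher and 0 lower, against 2.63% of all autosomal genes that were higher. The median difference was 0.31, and against the female mean it was 0.66 in male pool 1 and 0.05 in male pool 2. The means of the 26 were 6.34 and 5.50 in the male pools against 4.90 and 4.86 in the female pools. Prom1, which codes for the membrane protein prominin 1, was 11.25 and 9.82 in the male pools against 5.34 and 5.22 in the female pools, 38.1-fold higher (5.25 ± 0.43, adjusted p = 0.00248). Cdh1, which codes for E-cadherin, was 8.38 and 6.31 in the male pools against 3.07 and 3.04 in the female pools, at least 11.27-fold higher. The tight junction gene Cldn7 was 8.87 and 7.04 in the male pools against 3.88 and 3.83 in the female pools (4.10 ± 0.60). Krt8, Krt18 and Spint2 were the others, and Krt18 was 9.55 and 8.12 in the male pools against 6.33 and 6.31 in the female pools. In each of these genes male pool 1 was the brighter one, as for most epididymal genes. The milk gene Csn3 lay near background in all 4 pools (3.69 and 3.66 in the male pools, 3.90 and 3.70 in the female pools), and Epcam was 7.71 and 7.18 in the male pools and 7.24 and 7.15 in the female pools (0.25 ± 0.18, adjusted p = 0.561). The epididymal list moved with these genes, as given above, and its part in them was not tested. The count of 6 became 1 without either female pool or either rsl female pool, 3 without male pool 1 and 10 without male pool 2.

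Of 21 measured oviduct and uterus genes 3 were higher and 3 lower in males (Hoxa11, Msx1 and Tppp3), against 2.63% and 3.02% of all autosomal genes. The 3 higher ones are known from motile cilia, which line the efferent ducts of males and the oviduct of females. Tppp3, which is also known from ciliated cells, went the other way (-1.01 ± 0.17, adjusted p = 0.0274). No list of cilia genes was tested. Ccdc153 was 6.76 and 8.13 in the male pools against 3.53 and 3.58 in the female pools, at least 12.1-fold higher. The dynein light chain gene Dynlrb2 was 6.21 and 7.45 in the male pools against 3.62 and 3.65 in the female pools, at least 7.89-fold higher. Rsph1, a radial spoke gene, was higher by 1.53 ± 0.22. Foxj1, the master regulator of motile cilia, was 4.79 and 5.55 in the male pools and 3.995 and 3.90 in the female pools and did not pass (adjusted p = 0.0514). The oviduct glycoprotein gene Ovgp1 was 4.86 and 4.73 in the male pools and 4.61 and 4.46 in the female pools (0.26 ± 0.12, adjusted p = 0.315). Among 20 ovary genes the steroid enzyme gene Cyp11a1 was below background in all 4 pools, and 2 passed, both coding for inhibin and activin subunits that fat also makes: Inhba was higher (0.82 ± 0.14) and Inhbb lower (-0.95 ± 0.15).

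**Figure D4:**
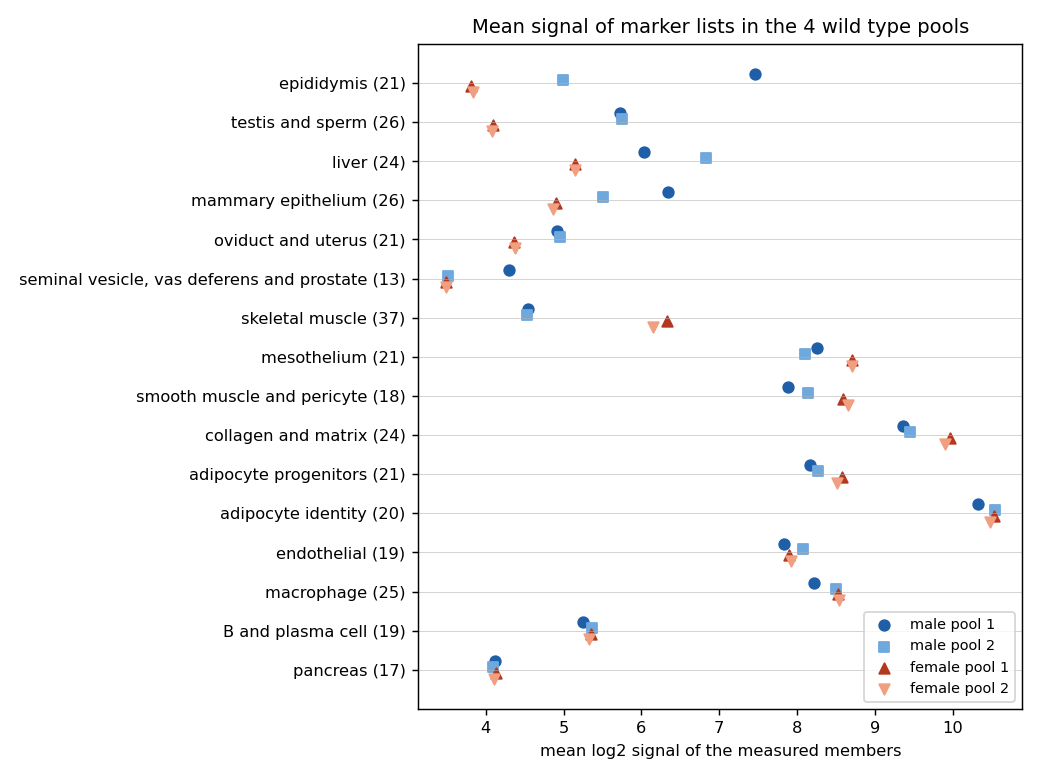
Mean log2 signal of the measured members (x axis) of 16 marker lists (y axis, with the number of members) in the 4 wild type pools, with circles and squares for the male pools and triangles for the female pools. Epididymal genes separate the male pools (7.47 and 4.995), skeletal muscle genes lie at 4.545 and 4.53 in the male pools and 6.33 and 6.14 in the female pools, and adipocyte identity genes overlap.

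Liver genes were higher in males, and more so in male pool 2. Of 24 measured members 7 were higher and 0 lower, against 2.63% and 3.02% of all autosomal genes, with a median of 0.75. The list averaged 6.03 and 6.83 in the male pools against 5.14 and 5.15 in the female pools. Ttr, which codes for transthyretin, was 6.98 and 8.60 in the male pools against 4.13 and 4.29 in the female pools, 11.9-fold higher (3.58 ± 0.45, adjusted p = 0.0109), with 3 of 4 probe sets past the threshold. Serpina1c, an alpha-1-antitrypsin gene with close copies that the array may not separate, was 6.83 and 8.66 in the male pools against 3.92 and 4.15 in the female pools, 13.1-fold higher. The haptoglobin gene Hp, which adipocytes also express, was 12.49 and 12.60 in the male pools against 11.87 and 11.71 in the female pools (0.75 ± 0.10). Fga, Apoa1, Cyp3a11 and Serpina1b were the others. Alb, which codes for albumin, was 6.82 and 8.14 in the male pools and 6.57 and 6.91 in the female pools and did not pass (0.74 ± 0.43, adjusted p = 0.454). The summed signals of the list were 18350 and 21359 in the male pools against 15605 to 16374 in the female pools. The count of 7 became 0 without either female pool, 14 without male pool 1 and 4 without either rsl female pool.

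Few immune genes passed the test. Macrophage genes (25 measured), mast cell genes (12) and T and NK cell genes (21) gave 0 calls with limma, with 6, 2 and 3 at an unadjusted p under 0.05. Their medians were -0.22 for macrophages, -0.17 for mast cells and -0.003 for T and NK cells. Adgre1, an adhesion receptor gene used as a marker of mouse macrophages, was 7.59 and 7.82 in the male pools and 8.01 and 8.08 in the female pools (-0.34 ± 0.16, adjusted p = 0.346). Of 19 B and plasma cell genes only Ighm was higher, at 12.05 and 11.92 in the male pools against 11.02 and 11.12 in the female pools (adjusted p = 0.0491, 1 of 10 probe sets). Of 19 endothelial genes 2 were higher, against 2.63% of all autosomal genes. They were Aplnr, the apelin receptor (0.55 ± 0.09), and Flt4, the lymphatic receptor VEGFR3 (0.91 ± 0.17). Pancreas, intestine, kidney and adrenal, and lymph node and spleen lists gave 0 calls with limma among 17, 18, 20 and 17 genes, with 0, 3, 3 and 2 at an unadjusted p under 0.05. Of 20 nerve and Schwann cell genes only S100b passed (-0.64 ± 0.10), and it is also known from adipocytes. Of 20 skin genes Perp was higher (1.64 ± 0.30) and Sbsn lower (-0.76 ± 0.14).

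Some clock and early response genes passed the test, beside 2.63% of all autosomal genes that were higher and 3.02% that were lower. Of 19 clock genes Per3 was higher (0.96 ± 0.14, 1 of 6 probe sets) and Nfil3 lower (-1.01 ± 0.14), while Nr1d1 was 6.89 and 6.84 in the male pools and 6.91 and 6.95 in the female pools (adjusted p = 0.949). Of 23 immediate early genes Fos (-1.22 ± 0.24), Atf3 (-0.73 ± 0.09) and Fosl2 (-0.57 ± 0.11), which respond within minutes to stress or handling of tissue, were lower in males. Fos was 5.58 and 6.38 in the male pools against 7.14 and 7.26 in the female pools. Among 19 genes known for sex bias in mouse liver, Serpina1c was higher, as given above. Mup3, a major urinary protein gene, was 4.70 and 6.05 in the male pools and 6.36 and 6.28 in the female pools (-0.95, adjusted p = 0.271).

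Outside the lists, the 12 largest differences in each direction held several further genes. Higher in males were the potassium channel gene Kcnk1 (at least 32.5-fold), the calmodulin-like gene Calml3 (33-fold), the matrix protease gene Mmp7, Plet1 (at least 25.7-fold), the glutathione transferase gene Gstm7, Dcdc2a (at least 13.4-fold) and the desmosome gene Dsp. Mmp7, which codes for matrilysin, an enzyme of glandular epithelia, was 9.24 and 10.08 in the male pools against 4.91 and 4.77 in the female pools, 28.3-fold higher (4.82 ± 0.35, adjusted p = 0.00189). Dsp was 8.25 and 8.04 in the male pools against 3.91 and 3.76 in the female pools (4.31 ± 0.35). Lower in males was Pcp4 (chromosome 16, 96467606-96525793), which codes for a small calmodulin-binding protein, at 4.59 and 3.47 in the male pools against 9.26 and 9.06 in the female pools, 34.9-fold lower (-5.13 ± 0.32, adjusted p = 0.0011), with male pool 2 below background. Cybrd1, an iron reductase gene, was 5.23 and 4.55 in the male pools against 8.37 and 8.22 in the female pools, 10.6-fold lower (-3.41 ± 0.20, adjusted p = 0.000905), with both of its probe sets past the threshold. The rest of the 12 are described above: muscle genes, Hoxa10, Hoxc10, Elovl6 and the steroid enzyme gene Akr1c14.

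The male pools differed from each other by at least 1 log2 unit at 351 autosomal genes (1.97%), 283 brighter in pool 1 and 68 brighter in pool 2, against 2 such genes between the female pools. Brighter in pool 1 were epididymal genes, such as Serpina1f at 11.35 and 3.70 in the male pools, Spint4 at 11.68 and 4.16, and Spink8 at 12.35 and 5.58, with both female pools between 3.19 and 4.06 for these genes. Among the genes brighter in pool 2 were liver genes, such as Serpina1a at 4.11 and 6.71 and Fabp1 at 4.17 and 5.71. The female pools lay between 3.06 and 3.77 for both. The epididymal genes Gpx5 and Lcn8, given above, were brighter in pool 2 too, as were Mmp12 (5.51 and 7.16) and Ak7 (5.81 and 7.32). On the lists, 12 of 21 epididymal genes were at least 1 unit brighter in pool 1 and 5 in pool 2, and 11 of 24 liver genes were brighter in pool 2 and 1 in pool 1. Skeletal muscle genes did not share this split, with 1 of 37 that far apart, and neither did the 20 adipocyte identity genes, with 0.

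**Figure D5:**
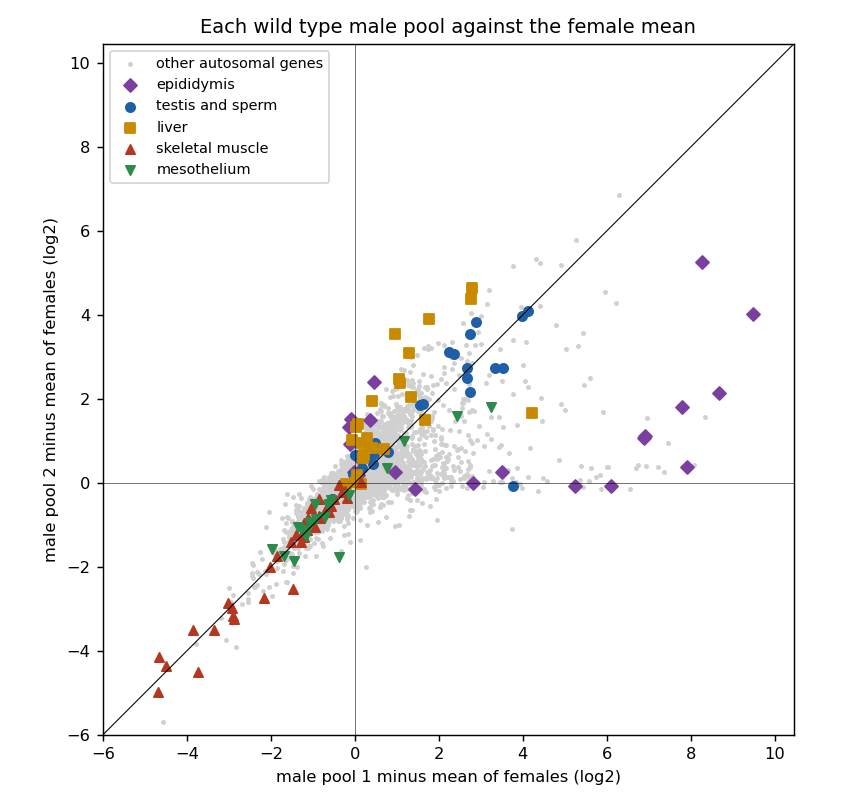
Each autosomal gene's signal in male pool 1 (x axis) and male pool 2 (y axis), both minus the mean of the female pools (log2 units), with 5 marker lists in colour and the line of equal values. Most skeletal muscle and testis genes lie near the line, 12 of 21 epididymal genes lie at least 1 unit below it, and 11 of 24 liver genes lie at least 1 unit above it.

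The same contrast in the rsl strain used other mice and shared no pools with this one. Both contrasts took the same spread per gene from 1 model. A gene's pass in rsl is therefore not independent of its pass in the wild type strain, and the counts of passes below carry this limit. There 6.84% of autosomal genes were higher and 10.2% lower in males. Of the 57 list genes that were higher in wild type males 52 had the same sign in rsl and 35 passed there. Of the 82 that were lower 79 had the same sign and 57 passed. Over all autosomal genes, of the 469 higher in wild type males 437 had the same sign in rsl and 220 passed there, and of the 539 lower 521 had the same sign and 383 passed. Sult1e1 was 7.98 and 8.14 in rsl males against 3.67 and 3.91 in rsl females. Akr1c14 was 3.32 and 3.69 in rsl males against 7.54 and 7.29 in rsl females. Hoxa10 was 4.42 and 4.76 in rsl males against 7.44 and 7.32 in rsl females. The liver genes did not pass there: Ttr was 4.42 and 4.74 in rsl males and 5.10 and 4.83 in rsl females. The difference between the strains did not pass either (interaction adjusted p = 0.12). Actg2 had the opposite sign in rsl, at 10.92 and 9.96 in rsl males and 9.43 and 9.10 in rsl females (interaction adjusted p = 0.0679). Per3 was lower in rsl males (-0.69, adjusted p = 0.0264), with an interaction that did not pass (adjusted p = 0.0679). The test of the difference between the strains passed for 20 autosomal genes (0.112%). Of these 1 was also called in the wild type strain, Crtac1, which codes for a secreted cartilage protein. It was 5.92 and 6.03 in wild type males against 5.44 and 5.29 in wild type females. In the rsl strain it was 4.29 and 4.46 in males against 5.88 and 6.08 in females (interaction 2.22 ± 0.15, adjusted p = 0.0075).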

How the data were processed

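RNA of 8 pools was measured on arrays. The authors deposited log2 values, 1 signal for each probe set and array, made with RMA per the submitters' processing notes (version not stated). The authors' deposited annotation table holds the other unit, text that names genes, and 8 columns of values whose headings match no sample, which were not used. Of 45141 probe sets, 104 controls were set aside. Gene names were updated through RefSeq (GRCm38.p6), 38352 probe sets named 20737 genes, and of several probe sets the brightest on average across the 8 arrays stood for the gene. Chromosomes 1 to 19 gave 17843 genes, while 665 genes of X and Y and 2229 without a chromosome were set aside.

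The number of arrays limits the precision. Background was the highest of 22 non-specific controls per array (GC counts 3 to 24, with GC 25 omitted, a choice made after seeing the data). Where both pools of the dimmer group lay at or below it, the fold is a bound, at least that many fold.

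The linear model was fitted with limma 3.58.1 in R 4.3.3 on all 8 arrays with 1 coefficient per group (4 residual and 3.00 prior degrees of freedom) and checked on simulated data. Tests are two-sided. The 39 gene lists hold 833 genes, of which 772 were measured on autosomes. Members and lists were chosen with earlier results of these data known. Genes named are the 12 largest differences in each direction past the threshold, list members past the threshold, up to 4 members of each list with the smallest p, defining markers, and genes of the interaction test. Other genes named for context (Fasn, Scd1, Srebf1, Pnpla2, Lipe, Insr, Nr3c1, Per1, Cyp19a1, Pdgfra, Col1a1, Col3a1, Acta2, Nr1d1, Svs4, Myl1, Foxj1 and the genes that separate the male pools) were chosen after their values were seen. Some genes are not reported here. Replicate numbers did not pair the arrays, since correlations of deviations ran from -0.048 to 0.346. Of 56 called list genes with several probe sets, 25 had another that passed in the same direction and 0 had one that passed in the opposite direction.

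Alternatives were the wild type arrays alone, a replicate block, an intensity trend, array weights, gene means, leaving out single arrays, quantile normalization, a filter on dim probe sets and median centring.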

Additional observations from a re-analysis of the deposited data

Results flagged for a closer look

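The difference between the sexes itself differed between the strains, by limma's interaction test (wild type difference minus rsl difference), for 12 genes of the lists or of the wild type calls. For most of them the wild type values were closer together than the rsl values. The epididymal genes Cst11 (-7.74), Lcn8 (-7.76), Rnase10 (-7.39), Cst12 (-7.35), Lcn9 (-7.35), Cst8 (-6.94) and Adam28 (-6.49) were bright in rsl males only. Cst11, for example, was 11.81 and 11.02 in rsl males against 3.61 and 3.49 in rsl females, whereas wild type males had 3.43 and 3.71 and wild type females 3.52 and 3.37 (adjusted p = 0.0011). In wild type male pool 1, in which Crisp1 and Lcn5 were bright, these genes lay between 3.25 and 4.32. In wild type male pool 2 Lcn9 (5.57), Cst8 (5.47), Lcn8 (5.45) and Rnase10 (5.02) were brighter than in the wild type female pools, at 3.86 to 4.27. Sprr2f, a gene of the mouse uterus, had an interaction of 3.78 and was below background in all 4 wild type pools, against 3.26 and 3.19 in rsl males and 7.21 and 7.02 in rsl females. The clock output genes Dbp (1.81) and Ciart (2.23) and the adipokine gene Nrg4 (1.40) were lower in rsl males than in rsl females and did not pass in the wild type strain. Dbp was 10.11 and 10.25 in rsl males against 11.66 and 11.67 in rsl females, whereas wild type males had 11.01 and 11.29 and wild type females 10.87 and 10.78. Crtac1 (2.22) was higher in wild type males and lower in rsl males. Sample groups of 2 pools were too small to look for outlying pools.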

How the results depend on the processing

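The counts rest on the spread between 2 pools a group. Leaving out 1 of the 8 pools at a time gave 24 to 997 genes higher and 57 to 1040 lower in males, and 3 to 1633 genes in the interaction test. List counts ran from 1 to 25 lower for skeletal muscle, 1 to 15 for mesothelium, 2 to 11 for collagen and matrix, 2 to 9 for smooth muscle, 1 to 8 for adipocyte progenitors, 0 to 11 for fatty acid synthesis, 0 to 6 for thermogenic and 3 to 6 for Hox genes. Counts higher in males ran from 0 to 8 for Hox, 0 to 12 for epididymis, 0 to 17 for testis, 0 to 14 for liver, 1 to 10 for epithelial and 4 to 5 for glucocorticoid genes. A group left with 1 pool is assumed to vary like the others. With array weights 957 genes were higher and 941 lower, with 55 in the interaction test, 14 lower mesothelial, 10 lower collagen, 8 higher Hox and 2 higher epididymal genes. The 4 wild type arrays alone gave 14 lower mesothelial, 11 lower collagen and 7 higher Hox genes, and no interaction test could be made from them. Leaving out dim probe sets gave 12 genes in the interaction test, 5 higher Hox and 2 higher epididymal genes, and an intensity trend gave 2 higher epididymal genes. With the replicate number as a block, which the pairing check could not decide on, 457 genes were higher and 508 lower, with 2 higher epididymal genes. Median centring moved the median of all genes to -0.021. Of the 148 named genes that passed, the settings that kept all arrays lost 0 to 16, leaving out single arrays lost 0 (either rsl male pool) to 118 and 125 (a wild type female pool), and none changed sign, and 22 passed under every setting run on them, among them Sult1e1, Lcn2, Akr1c14, Hoxa10, Hoxc10, Hoxd10, Fkbp5, Mt1, Mt2, Pgr, Pcp4, Msln and Postn. Genes near background carry only bounds.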
